A study of Mus musculus with 6 samples.

Results

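The genes described here are 9 megakaryocyte and platelet genes, chosen by name from the 56980 genes of the deposited count table: *Pf4*, *Ppbp*, *Gp1ba*, *Gp1bb*, *Gp9*, *Gp6*, *Treml1*, *Vwf* and *Selp*. Each name matched 1 row, and all 9 genes passed edgeR's low-count filter (filterByExpr), which left 15190 genes for testing. They were compared in cultured bone marrow (BM) MSCs, stromal cells grown from marrow by adherence to plastic, between 3 TranspCtrl and 3 TranspExer samples. All recipients were female mice that underwent ovariectomy (OVX) at 8 weeks of age, were treated with antibiotics for 1 week and then received fecal microbiota transplantation (FMT) for 8 weeks. The donors were OVX mice as well, sedentary for the TranspCtrl group and trained on a treadmill for the TranspExer group, and the strain is not given in the sources used here. Marrow was flushed and plated for 7 days, the floating cells being washed off without a described sort, and the labels do not say whether a sample came from 1 mouse or several. P-values therefore measure the spread between these samples, which may be technical.

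Megakaryocytes are large polyploid cells of the marrow that shed platelets into the blood sinusoids. They load α-granules with chemokines and adhesion proteins and carry on their surface receptors for von Willebrand factor and collagen, with which platelets bind to injured vessels. Several of these genes are also known from other marrow cells: *Vwf* and *Selp* are made by endothelial cells, and *Pf4* by some macrophages.

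Most members rose in the TranspExer group past both thresholds used for differentially expressed genes (DEGs), an adjusted p-value of 0.05 and a fold change of 2, and no member fell. There were 7 upregulated DEGs among the 9 members, where 3.5% of all 15190 tested genes were upregulated DEGs, 5.28% downregulated and 8.78% either. At the adjusted p-value alone the same 7 members passed, all higher, beside 32.2% of all genes in either direction, 16.6% higher and 15.5% lower. The folds of the 7 genes ran from 2.35 for *Treml1* to 3.54 for *Gp1ba*. *Gp9* was 1.61-fold higher with an adjusted p-value of 0.0502 (edgeR), and *Pf4* had a fold of 1.01. The median log2 fold change of the 9 members was 1.32, beside -0.018 over all tested genes. For 8 of 9 members every TranspExer sample was above every TranspCtrl sample, where 52.4% of all tested genes did not overlap, with 27.2% higher and 25.1% lower in TranspExer. In bulk RNA, more cells of a type and more RNA per cell cannot be told apart.

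The total count was 17647638 to 21319166 per sample, so 3 counts, taken as the floor, were 0.141 to 0.17 CPM (counts over the library size, corrected with TMM factors for all values below), and every member was above this floor in every sample. This floor covers counting error only. TranspCtrl replicate 1 stood apart from the other TranspCtrl samples, with a mean chi-square per gene of 59.2 and 54 against them, whereas it was 3.79 between TranspCtrl replicates 2 and 3 and 4.43 to 7.82 within the TranspExer group. Results that rest on this sample are given with and without it. Values of single samples are listed in the order of the replicate numbers.

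**Figure D1:**
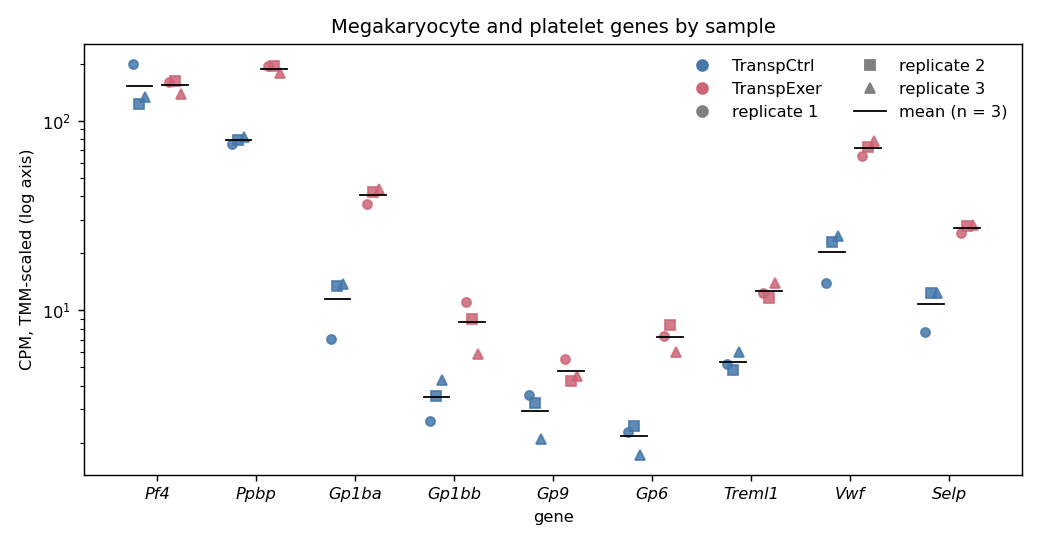
Level of each gene in each sample, as TMM-scaled CPM on a log axis. Points are the 3 TranspCtrl (blue) and 3 TranspExer (red) samples, symbols the replicate numbers, and lines the group means; the groups overlap for *Pf4* and are apart for the other 8 genes.

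The first members are the chemokines *Ppbp* (pro-platelet basic protein, chr5:90768518-90770063 of mm10, plus strand) and *Pf4* (platelet factor 4, chr5:90772435-90773383, plus strand), both stored in α-granules. They are neighbours on chromosome 5, with 2371 bases between them, and each has 3 exons after overlapping exons are merged. *Ppbp* (ENSMUSG00000029372) had 75, 79.2 and 82.4 CPM in the TranspCtrl samples and 194, 194 and 178 CPM in the TranspExer samples. Every TranspExer sample was above every TranspCtrl sample, and the 3 samples of each group lay close together. Its level rose from 78.9 ± 3.75 to 188 ± 9.02 CPM (mean ± SD, n = 3), that is by log2 1.26 (SE 0.08, edgeR adjusted p = 5.65e-05), which ranked 61 of 15190 genes by p-value.

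*Pf4* (ENSMUSG00000029373) had 200, 123 and 133 CPM in the TranspCtrl samples and 160, 162 and 139 CPM in the TranspExer samples. The highest and the lowest of the 6 samples were both TranspCtrl samples, and the groups overlapped. The mean ± SD (n = 3) was 152 ± 41.7 CPM and 154 ± 12.6 CPM, a log2 fold change of 0.02 (SE 0.18, edgeR adjusted p = 0.948). This difference had no stable sign, being -0.07 with upper-quartile normalization and -0.08 with scaling by library size only. TranspCtrl replicate 1 decided the value: without it *Pf4* was higher in TranspExer by 0.26 on the log2 scale (SE 0.07, edgeR adjusted p = 0.0089), still the smallest change of the 9 genes, in a fit that placed 22.1% of all genes higher and 19.6% lower. The complement genes *C1qa*, *C1qb* and *C1qc*, made by macrophages, were also highest in TranspCtrl replicate 1, with 15815, 17266 and 13834 counts against 8452 to 11855 in the other TranspCtrl samples. The part of macrophages in the *Pf4* level of that sample was not tested.

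Because the chemokines share a storage granule and a locus, their ratio was taken within each sample. *Ppbp* over *Pf4*, in CPM per kilobase of merged exons, was 0.25, 0.428 and 0.414 in the TranspCtrl samples and 0.807, 0.796 and 0.851 in the TranspExer samples. Per kilobase, *Ppbp* was below *Pf4* in every sample, whereas in CPM without a length it was above *Pf4* in all 3 TranspExer samples. The ratio of each TranspExer sample was above that of each TranspCtrl sample. The difference of the log2 ratio was 1.21 (exact two-sided permutation test, p = 0.1, adjusted p = 0.25 over 5 ratios, all picked after the values were seen), and 0.96 without TranspCtrl replicate 1. With 3 samples against 3, 0.1 is the smallest p-value this test can give.

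Next are 3 subunits of the platelet receptor for von Willebrand factor, in which GP Ibα binds the ligand and GP Ibβ and GP IX are partner chains needed for its surface expression. *Gp1ba* (ENSMUSG00000050675, chr11:70639122-70642036, plus strand) had 7.03, 13.5 and 13.8 CPM in the TranspCtrl samples and 36.2, 41.8 and 43.5 CPM in the TranspExer samples. Its lowest TranspExer sample was well above its highest TranspCtrl sample, and TranspCtrl replicate 1 was the lowest of all. The level rose from 11.4 ± 3.81 to 40.5 ± 3.83 CPM (mean ± SD, n = 3), that is by log2 1.82 (SE 0.23, edgeR adjusted p = 0.000996), and without TranspCtrl replicate 1 it was 1.57. No other member had a larger log2 fold change in the fit of all 6 samples.

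*Gp1bb* (ENSMUSG00000050761, chr16:18620317-18622403, minus strand) had 2.59, 3.54 and 4.28 CPM in the TranspCtrl samples and 11.1, 8.95 and 5.91 CPM in the TranspExer samples. The groups were apart, but the TranspExer samples were the most spread of any member, with a coefficient of variation of 30.3%. The log2 fold change was 1.32 (SE 0.27, edgeR adjusted p = 0.00878). Its single merged exon, 2087 bases long, shares 1902 bases with *Sept5*, a septin gene on the same strand named after the overlap was found, and 867 bases with the gene model *Gm49601*. That gene model had 35, 18 and 22 counts in the TranspCtrl samples and 10, 13 and 24 counts in the TranspExer samples. *Sept5* held 910 to 1412 counts per sample, far more than the 53 to 213 counts of *Gp1bb*, and how the authors assigned shared reads is not given in the sources used here. When the counts of the 3 genes were summed, an alternative chosen after seeing the data, the log2 fold change was 0.42 (SE 0.10, edgeR adjusted p = 0.0147). Most counts of that sum belonged to *Sept5*, so it does not measure *Gp1bb* itself, and the effect of the assignment on the fold of *Gp1bb* was not tested.

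*Gp9* (ENSMUSG00000030054, chr6:87778072-87779768, plus strand) had 3.56, 3.23 and 2.09 CPM in the TranspCtrl samples and 5.55, 4.24 and 4.52 CPM in the TranspExer samples. The groups did not overlap in CPM, at 45 to 73 counts in TranspCtrl and 73 to 106 counts in TranspExer samples. The log2 fold change of 0.69 (standard error 0.23) missed the threshold with an adjusted p-value of 0.0502 (edgeR). It passed with DESeq2 (0.70, adjusted p = 0.0478), without a filter on low counts (adjusted p = 0.0328) and without TranspCtrl replicate 1 (0.85, adjusted p = 0.00771), and its adjusted p-values over the 12 alternatives ran from 0.00771 to 0.173. *Gp1ba* over *Gp9*, per kilobase of merged exons, was 0.639, 1.35 and 2.13 in the TranspCtrl samples and 2.12, 3.2 and 3.12 in the TranspExer samples. TranspCtrl replicate 3 and TranspExer replicate 1 were almost equal, so the groups overlapped. The mean ratio was 1.37 ± 0.747 against 2.81 ± 0.603 (SD, n = 3 each), a difference of 1.17 on the log2 scale that did not pass (exact two-sided permutation test, p = 0.2, adjusted p = 0.25), in a test of 3 against 3 that cannot show a lack of difference. Without TranspCtrl replicate 1 that difference was 0.7. The ratio of *Gp1ba* to *Gp1bb* overlapped as well, with 2.09 to 2.93 in TranspCtrl and 2.49 to 5.65 in TranspExer samples and a log2 difference of 0.58 (exact two-sided permutation test, p = 0.2).

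The promoters of *Ppbp*, *Pf4*, *Gp1ba* and *Gp9* are shown as those of the neighbouring chemokine genes and of the receptor subunits without overlapping genes. Of the 9 members, 8 matched the RefSeq promoter table (GRCm38.p6) by symbol and *Vwf* did not. Each line gives the 250 bases before the annotated start, 5′ to 3′ on the gene's strand. Capitals mark words of the motifs bound by GATA factors (AGATAA or TGATAA or AGATAG or TGATAG) and ETS factors (AGGAAG or CGGAAG), searched on both strands, families that include the megakaryocyte regulators GATA1 and FLI1.
*Ppbp* chr5:90768268-90768517, plus strand: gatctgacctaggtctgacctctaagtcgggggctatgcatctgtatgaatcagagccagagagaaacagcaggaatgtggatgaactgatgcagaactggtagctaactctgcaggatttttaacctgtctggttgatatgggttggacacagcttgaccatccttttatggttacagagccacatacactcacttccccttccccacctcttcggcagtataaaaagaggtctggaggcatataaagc
*Pf4* chr5:90772185-90772434, plus strand: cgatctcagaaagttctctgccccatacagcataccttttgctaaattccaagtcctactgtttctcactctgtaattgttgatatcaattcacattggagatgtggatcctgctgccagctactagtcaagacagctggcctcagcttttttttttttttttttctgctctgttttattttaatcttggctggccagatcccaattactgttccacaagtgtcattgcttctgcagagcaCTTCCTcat
*Gp1ba* chr11:70638872-70639121, plus strand: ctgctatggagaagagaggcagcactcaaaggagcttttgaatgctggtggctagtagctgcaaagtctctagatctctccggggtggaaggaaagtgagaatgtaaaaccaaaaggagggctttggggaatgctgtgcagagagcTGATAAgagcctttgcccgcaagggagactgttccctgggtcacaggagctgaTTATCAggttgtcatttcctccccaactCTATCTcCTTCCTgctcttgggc
*Gp9* chr6:87777820-87778069, plus strand: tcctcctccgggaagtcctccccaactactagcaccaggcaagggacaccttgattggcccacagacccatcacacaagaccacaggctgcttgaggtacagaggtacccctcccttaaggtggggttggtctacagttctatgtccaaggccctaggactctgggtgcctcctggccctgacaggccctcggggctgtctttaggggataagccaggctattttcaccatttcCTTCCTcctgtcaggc

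The *Gp1ba* promoter held 3 GATA words, which began 104, 51 and 23 bases before the start, and 1 ETS word at 16 bases. The promoters of *Gp9* and *Pf4* each held 1 ETS word, at 16 and 9 bases, and that of *Ppbp* held none of the words. Among the others, *Gp1bb* held 1 word of each kind, *Gp6* a GATA word at 144 bases and *Selp* an ETS word at 64 bases, and *Treml1* held none. In all, 3 of the 8 promoters held a GATA word, 5 an ETS word and 2 both. Over the 32851 promoters of the table, these shares were 26.5%, 39.2% and 9.21%. No match of one motif overlapped a match of the other in these 8 windows. A match describes letters in this window only.

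*Gp6* and *Treml1* encode receptors of the immunoglobulin superfamily: GP VI is the main signalling receptor for collagen on platelets, and TLT-1, the product of *Treml1*, is held in α-granules and reaches the surface on activation. *Gp6* (ENSMUSG00000078810, chr7:4363965-4397744, minus strand) had 2.29, 2.46 and 1.72 CPM in the TranspCtrl samples and 7.32, 8.37 and 6.06 CPM in the TranspExer samples. The groups were far apart at modest depth, 37 to 48 counts against 122 to 144. Its log2 fold change was 1.75 (SE 0.20, edgeR adjusted p = 0.000654). *Treml1* (ENSMUSG00000023993, chr17:48359916-48367176, plus strand) had 5.22, 4.83 and 6 CPM in the TranspCtrl samples and 12.3, 11.6 and 13.9 CPM in the TranspExer samples. Every TranspExer sample was again above every TranspCtrl sample, with a small spread in both groups. The log2 fold change of *Treml1* was 1.23 (SE 0.13, edgeR adjusted p = 0.000525). The ratio of *Treml1* to *Gp6* was 8.24 to 14.7 in TranspCtrl and 5.82 to 9.62 in TranspExer samples, which overlapped, with a log2 difference of -0.51 (exact two-sided permutation test, p = 0.3).

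*Vwf* encodes von Willebrand factor, the multimeric ligand of the receptor above, and *Selp* encodes P-selectin, which tethers leukocytes. Both proteins are stored in the α-granules of platelets and in the Weibel-Palade bodies of endothelial cells. *Vwf* (ENSMUSG00000001930, chr6:125546774-125686679, plus strand) had 13.9, 22.9 and 24.6 CPM in the TranspCtrl samples and 65, 72.6 and 77.7 CPM in the TranspExer samples. *Selp* (ENSMUSG00000026580, chr1:164115264-164150026, plus strand) had 7.71, 12.3 and 12.3 CPM in the TranspCtrl samples and 25.7, 27.8 and 28.1 CPM in the TranspExer samples. Both genes were lowest in TranspCtrl replicate 1 and did not overlap between groups. *Vwf* rose by log2 1.81 (SE 0.20, edgeR adjusted p = 0.000495), or 1.6 without TranspCtrl replicate 1. *Selp* rose by 1.34 (SE 0.17, edgeR adjusted p = 0.00116), or 1.14 without that sample. *Vwf* over *Selp*, per kilobase of merged exons, was 0.494, 0.513 and 0.547 in the TranspCtrl samples and 0.693, 0.718 and 0.76 in the TranspExer samples. The ratio was higher in every TranspExer sample, with a difference of 0.48 on the log2 scale (exact two-sided permutation test, p = 0.1, adjusted p = 0.25). *Selp* shares exon bases with 2 antisense gene models that had at most 5 counts in any sample.

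**Figure D2:**
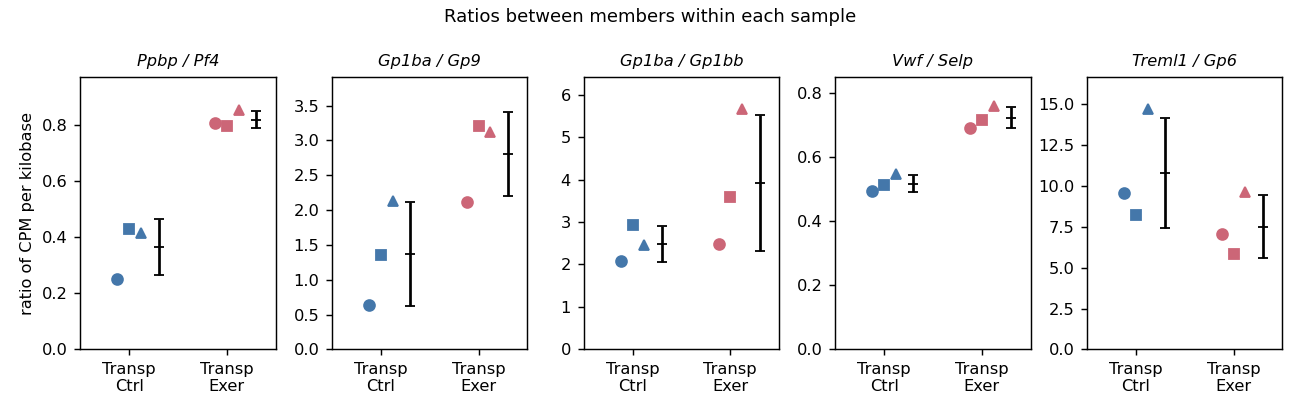
Ratios between pairs of members in each sample, as CPM per kilobase of merged exons, on linear axes from 0. Points are samples, and bars the mean ± SD (n = 3); *Ppbp* over *Pf4* and *Vwf* over *Selp* are apart between groups, and the other 3 ratios overlap.

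Levels of different genes were compared per kilobase of merged exons. *Pf4* was the highest in both groups, with 211 ± 57.8 CPM per kilobase (SD, n = 3) in TranspCtrl and 213 ± 17.4 (SD, n = 3) in TranspExer, followed by *Ppbp* with 72.8 ± 3.47 and 174 ± 8.33 (SD, n = 3 each). A wide gap separated them from *Gp1ba*, with 4.21 ± 1.40 and 14.9 ± 1.41 CPM per kilobase (SD, n = 3 each). *Gp6* was the lowest, with 0.366 ± 0.0661 and 1.23 ± 0.196 CPM per kilobase (SD, n = 3 each). In TranspCtrl the samples of *Gp1ba* and *Treml1*, *Treml1* and *Gp9*, *Gp9* and *Selp*, *Selp* and *Gp1bb*, and *Gp1bb* and *Vwf* overlapped as neighbours in the order, so the middle of the order was not resolved there. In TranspExer *Gp1ba* lay above *Treml1* and *Treml1* above *Selp* without overlap, while *Selp* and *Gp9*, *Gp9* and *Vwf*, and *Vwf* and *Gp1bb* overlapped. The length chosen moved the middle ranks: *Vwf* has 16064 bases of merged exons but 8834 bases in the deposited length column, with which its level in TranspExer was 8.13 ± 0.727 rather than 4.47 ± 0.40 CPM per kilobase (SD, n = 3 each). In CPM without a length the order moved further: over all 6 samples *Vwf* went from rank 8 to 3 and *Gp9* from rank 5 to 9, and *Gp9* was above *Gp6* in mean CPM in TranspCtrl but below it in TranspExer. *Pf4* and *Ppbp* together held 86.7%, 76.3% and 76.9% of the members' counts in the TranspCtrl samples and 68.4%, 67% and 63.8% in the TranspExer samples. The 7 members other than these chemokines summed to 56.6 ± 12.4 CPM in the TranspCtrl and 173 ± 8.53 CPM in the TranspExer group (mean ± SD, n = 3). Of these mean sums, *Vwf* held 20.4 and 71.8 CPM and *Selp* 10.8 and 27.2 CPM. Both genes are also made by endothelial cells.

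The 7 upregulated DEGs kept this call with each of the 6 samples left out in turn, with DESeq2, with both other scalings and with both other filters. When the fold change of 2 was tested within the model, 4 of them passed, *Vwf*, *Gp6*, *Gp1ba* and *Ppbp* (edgeR adjusted p = 0.0165, 0.0284, 0.0327 and 0.0459), and *Selp*, *Treml1* and *Gp1bb* did not (adjusted p = 0.271, 0.365 and 0.79).

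**Figure D3:**
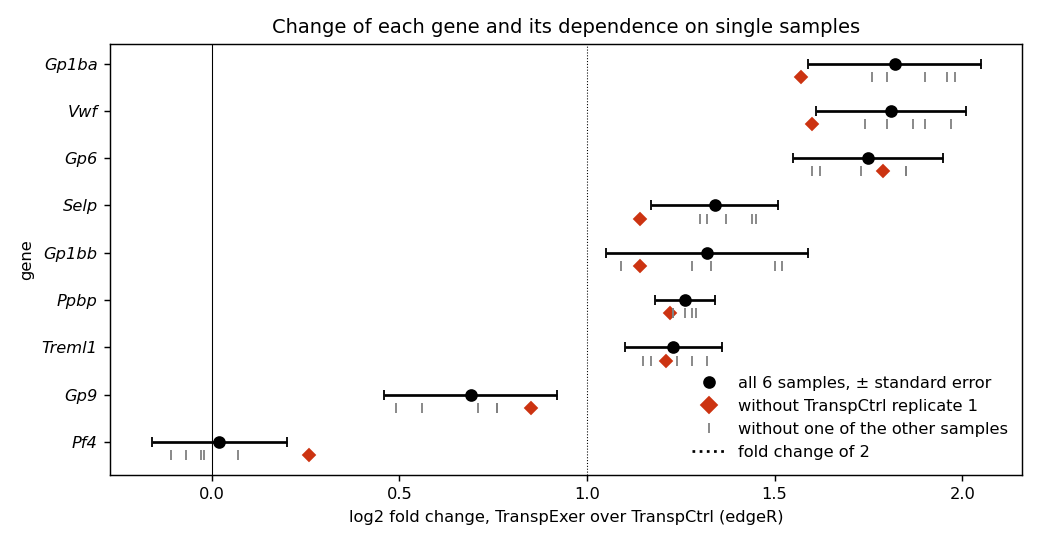
Log2 fold change of each gene, TranspExer over TranspCtrl, from edgeR, as the value of all 6 samples ± standard error (black), without TranspCtrl replicate 1 (red diamonds) and without each other sample (grey ticks). The dotted line is a fold change of 2; *Pf4* crosses 0 when single samples are left out and *Gp9* stays between 0.49 and 0.85.

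The genes whose pattern over the 6 samples was most like those of the most abundant members were taken by the root mean square difference of log2 CPM, each gene centred on its mean, among 13385 named genes. For *Pf4* they were *Atp6v1e1*, *Cdc45* and *Ing4*, with differences of 0.0265, 0.0359 and 0.0396. For *Ppbp* they were *Psen2*, *Dll4* and *Fcgr4*, with differences of 0.0619, 0.0645 and 0.0713. The member closest to *Ppbp* was *Treml1* (0.138), with 59 other genes closer, and the member closest to *Pf4* was *Gp9* (0.407), with 9263 other genes closer.

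Other genes of the lineage were examined in 4 lists, all 59 genes of which passed the low-count filter. Of these, 41 rose, 3 fell and 15 did not pass the adjusted p-value threshold, with a median log2 fold change of 0.66, and 19 were upregulated DEGs. Over all tested genes, 16.6% were higher and 15.5% lower at the same threshold and 3.5% were upregulated DEGs, the background for the list counts of this fit. Without TranspCtrl replicate 1, 47 rose and 3 fell, where 22.1% of all genes were higher and 19.6% lower. With scaling by library size only, 37 rose and 4 fell, where 13.3% of all genes were higher and 19.5% lower, and with upper-quartile normalization these shares were 13.5% and 19.1%.

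Of 11 lineage regulators, 8 rose and none fell (median log2 fold change 1.01). *Gata1*, a transcription factor of megakaryocytes shared with erythroid and mast cells, rose from 2.98 ± 0.281 to 6.76 ± 0.781 CPM (mean ± SD, n = 3), a log2 fold change of 1.18 (edgeR adjusted p = 0.00143). The most abundant regulators of the list were *Runx1*, *Fli1* and *Lyl1*, which are expressed in many blood cells. *Fli1* and *Lyl1* had log2 fold changes of 0.62 and 0.34 (edgeR adjusted p = 0.022 and 0.0242), and *Runx1* one of 0.36 (adjusted p = 0.263). Several of these regulators are shared with progenitors and with mast cells, of which some genes were looked up after the values were seen, with no fixed list. *Kit* and *Myb*, genes of progenitors, rose by log2 1.74 and 1.66, while *Flt3* and *Cd34* had values of -0.72 and 0.18 (edgeR adjusted p = 0.0638 and 0.185). Among mast cell and basophil genes *Prss34*, *Cpa3* and *Fcer1a* rose by log2 1.20, 0.95 and 0.89, *Mcpt8* had a value of 0.41 (edgeR adjusted p = 0.139) and *Cma1* one of -1.36 (edgeR adjusted p = 0.00647). Of eosinophil genes, *Epx* and *Prg2* rose by log2 2.80 and 2.74, and *Prg3*, *Ear6*, *Ear1* and *Ccr3* by 4.05, 2.6, 2.5 and 1.15. In contrast, *Il5ra* had a value of -1.98 (edgeR adjusted p = 6.19e-05). The part of these cells in the regulator counts was not tested.

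Of 17 platelet surface receptors, 16 rose and 1 fell (median log2 fold change 1.08), and 9 were upregulated DEGs. *Itga2b*, the αIIb chain of the fibrinogen receptor and the defining integrin of the lineage, had 630, 737 and 833 counts in the TranspCtrl samples and 1789, 1789 and 2200 counts in the TranspExer samples. It rose from 35.8 ± 4.37 to 102 ± 7.98 CPM (mean ± SD, n = 3), that is by log2 1.52 (SE 0.11, edgeR adjusted p = 8.85e-05). *Gp5*, the last subunit of the von Willebrand factor receptor and not among the 9 genes, rose from 7.39 ± 2.37 to 23.0 ± 0.747 CPM (mean ± SD, n = 3), that is by log2 1.64 (SE 0.21, edgeR adjusted p = 0.00122). The most abundant genes of the list, *Fcer1g*, *Itga6* and *Cd9*, are not particular to platelets and had log2 fold changes of 0.70, 0.48 and 0.34 (edgeR adjusted p = 0.00265, 0.0196 and 0.0182). The receptor that fell, named after its value was seen, was *P2ry12*, the platelet ADP receptor that macrophage-lineage cells also express, at 16.0 ± 1.35 CPM against 12.6 ± 0.769 CPM (mean ± SD, n = 3) and a log2 fold change of -0.35 (edgeR adjusted p = 0.0416).

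Of 17 genes for platelet cytoskeleton and signalling, 12 rose and none fell, 2 were upregulated DEGs and the median log2 fold change was 0.45. These 2, *Alox12* and *Nrgn*, were named after their values were seen. *Alox12*, a platelet lipoxygenase, had a log2 fold change of 1.61 (edgeR adjusted p = 1e-04), and *Nrgn* one of 1.15. *Tubb1*, the β1-tubulin of platelets and a defining marker, was among the genes that did not pass, with 1.67 ± 0.214 CPM in TranspCtrl and 2.20 ± 0.254 CPM in TranspExer (SD, n = 3 each), at 28 to 46 counts per sample (log2 fold change 0.40, SE 0.21, edgeR adjusted p = 0.182). The most abundant genes of this list were *Flna*, *Myh9* and *Tln1*, cytoskeletal genes of most cells, with log2 fold changes of 0.14, 0.30 and 0.52 (edgeR adjusted p = 0.303, 0.0816 and 0.0115).

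Of 14 genes for α-granule cargo and granule biogenesis, 5 rose, 2 fell and 7 did not pass (median log2 fold change 0.13). The 3 most abundant, *Thbs1*, *Sparc* and *F13a1*, are also expressed by stromal cells or macrophages. *Sparc* and *F13a1* fell by log2 fold changes of -0.89 and -0.72 (edgeR adjusted p = 0.00138 and 0.000414), and *Thbs1* had one of 0.12 (adjusted p = 0.565). The upregulated DEGs of the list, named after their values were seen, were *Pdgfb* and *Mmrn1*, which encode the PDGF B chain and multimerin, with log2 fold changes of 1.73 and 1.16. The part of endothelial cells, stromal cells or macrophages in the values of this list, these 2 genes included, was not tested. Without TranspCtrl replicate 1, 8 genes of this list rose and 2 fell, in the fit where 22.1% of all genes were higher.

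Markers of the cells that could share these genes were read from the same fit. Of 10 megakaryocyte markers that were not members, 8 rose and 1 fell, and their summed level was 83.5 to 103 CPM in TranspCtrl and 203 to 225 CPM in TranspExer samples. *Itga2b* had the highest level of them, and none of the 10 markers was at 0 over all samples. All 12 endothelial markers rose, with a median log2 fold change of 1.54 and a summed level of 226 to 274 CPM in TranspCtrl and 781 to 828 CPM in TranspExer samples. *Cdh5*, the cadherin of endothelial junctions, rose by log2 2.02 (SE 0.18, edgeR adjusted p = 0.00023), *Plvap* by 2.42 and *Pecam1*, which platelets also carry, by 0.87. The part of endothelial cells in the *Vwf* and *Selp* results was not tested.

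Of 10 macrophage markers, 3 rose and 1 fell (median log2 fold change 0.09), near the 32.2% of all genes in either direction, and their summed level was 4200 to 5050 CPM in TranspCtrl and 4830 to 5010 CPM in TranspExer samples, many times that of the megakaryocyte markers. *Adgre1*, which encodes F4/80, had a log2 fold change of 0.16 (edgeR adjusted p = 0.189). The most abundant of the list were *Csf1r*, *Cd68* and *Mrc1*, with log2 fold changes of 0.07, 0.78 and -0.33 (edgeR adjusted p = 0.511, 0.000377 and 0.0159). Without TranspCtrl replicate 1, 6 macrophage markers rose and 1 fell, where 41.7% of all genes passed in either direction. Of 10 stromal markers, which define the labelled MSCs, 1 rose and 8 fell, with a summed level of 14200 to 22400 CPM in TranspCtrl and 13400 to 14700 CPM in TranspExer samples. The most abundant were *Col1a1*, *Col1a2* and *Col3a1*, with log2 fold changes of -0.16, -0.61 and -1.28 (edgeR adjusted p = 0.674, 0.0148 and 8.1e-05).

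**Figure D4:**
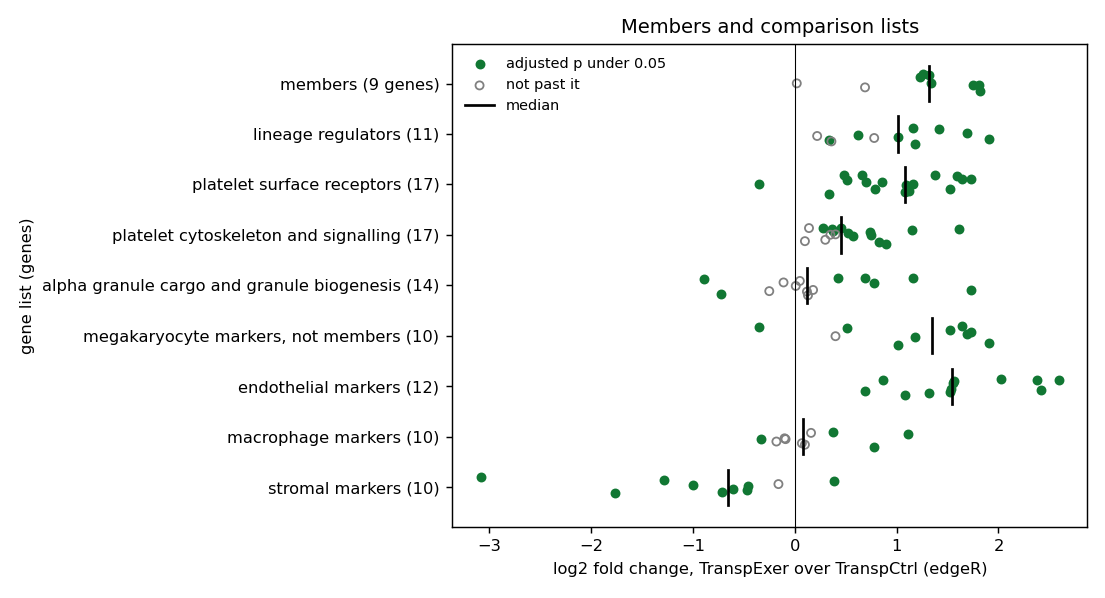
Log2 fold change of every gene, TranspExer over TranspCtrl, from edgeR, for the 9 members and each comparison list, with filled points for an adjusted p-value under 0.05 and a black line at the median. The medians of the members (1.32), the megakaryocyte markers (1.35) and the endothelial markers (1.54) lie above 1, the macrophage median is 0.09 and the stromal median is -0.66.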

How the data were processed

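RNA-Seq counts of BM MSCs came from 3 TranspCtrl and 3 TranspExer samples, grouped by the sample titles. The authors deposited estimated counts per gene, not normalized, with 10.1% to 12.2% of values not whole, and a gene length. The aligner and counting tool are not given in the sources used here; the submitters' processing notes name mm10. Counts were rounded. Genes were tested with edgeR 4.0.16 in R 4.3.3 (filterByExpr, TMM, quasi-likelihood test, group only), with Benjamini-Hochberg adjustment over 15190 genes, after a check on simulated data. DEGs passed an adjusted p of 0.05 together with a fold of 2. Standard errors came from the fold change and F statistic. Coordinates, exon overlaps and merged exon lengths came from GENCODE M21 (mm10), and promoters from RefSeq (GRCm38.p6).

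The members and lists were chosen with earlier results of these data known. The genes named are the members, the 3 most abundant tested genes of each list, 9 defining markers, and the 3 genes most like each of the 2 members with the highest counts; 1 gene of the rule is not reported here, a choice that did not depend on its value, and others are marked as named after their values were seen, as were *C1qa*, *C1qb*, *C1qc* and *Sept5*. Alternatives were DESeq2 1.42.0, upper-quartile and library-size scaling, 2 other filters, the replicate block, a test against a fold of 2 (glmTreat), and each sample left out. Summing *Gp1bb* with overlapping genes, the deposited length, the ratios without TranspCtrl replicate 1, and the lists under other scalings or without TranspCtrl replicate 1 were added after seeing the data.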

Additional observations from a re-analysis of the deposited data

How the results depend on the processing

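Of 109 log2 fold changes of single members recomputed under an alternative, 97 kept their direction and side of the adjusted p-value threshold, 5 passed it newly and 7 changed sign, all 7 for *Pf4*. The 97 include *Gp1bb* summed with its overlapping genes, whose log2 fold change of 0.42 was below a fold of 2. The log2 fold change of *Pf4* was -0.07 with upper-quartile normalization, -0.08 with library size only, -0.01 with at least 1 CPM in 3 samples, and -0.11 to 0.26 with single samples left out, being -0.11 and -0.07 without TranspCtrl replicates 2 and 3 and -0.02 and -0.03 without TranspExer replicates 1 and 2. With edgeR testing against a fold of 2, 138 genes were upregulated and 274 downregulated in place of 531 and 802, and 4 members were upregulated in place of 7; this test is stricter by construction. The labels do not say that equal replicate numbers pair the samples, and no sign of it was seen. The correlation of same-numbered deviations from the group means was 0.02, 0 and 0.04, and not every sample correlated best with its own number. With 3 samples per group, this check cannot exclude a pairing. With the replicate block, 519 genes were upregulated and 767 downregulated, 1257 DEGs were shared with the fit without the block, 7 members were upregulated DEGs, and *Gp9* had an adjusted p-value of 0.0411 (edgeR). With 1 sample left out, 443 to 579 genes were upregulated and 671 to 852 downregulated, and 7 members were upregulated DEGs each time. The number of samples, 3 per group, limits an exact test of 1 gene to p = 0.1.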

Other observations

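Among the lineage genes that the text above did not describe singly, and, except for *Nfe2*, chosen after their values were seen, *Gfi1b*, a repressor of the megakaryocyte and erythroid lineages, had 26, 23 and 29 counts in TranspCtrl replicates 1, 2 and 3 and 66, 69 and 98 counts in TranspExer replicates 1, 2 and 3 (log2 fold change 1.69). *Nfe2*, a factor required for platelet release, rose from 16.1 ± 3.00 to 32.5 ± 0.952 CPM (SD, n = 3 each), or log2 1.01 (edgeR adjusted p = 0.00135), whereas *Tubb1*, a known target of it, did not pass. *Mpig6b*, an inhibitory receptor of megakaryocytes, had 12 to 16 counts in TranspCtrl and 31 to 52 counts in TranspExer samples. *Clec1b*, the podoplanin receptor CLEC-2, which dendritic cells and macrophages can also express, rose by log2 0.51 (edgeR adjusted p = 0.015).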
